A study of Caenorhabditis elegans with 36 samples.

Results

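Chaperones of the HSP60, HSP70, HSP90 and HSP110 families in the cytosol and the mitochondria were followed in first-stage (L1) larvae of Caenorhabditis elegans across 4 strains and 3 treatments. The genes were hsp-1, hsp-6, hsp-60, hsp-70, hsp-110 and daf-21, and every probe set annotated with 1 of these symbols alone was taken. The symbol daf-21 is an older name of the gene now called hsp-90, under which its probe sets were annotated. The rule found 10 probe sets for the 6 genes, out of 22548 probe sets tested and 17118 genes with a probe set of 1 symbol.

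Molecular chaperones bind unfolded proteins and help them reach or regain their folded form, with the HSP70 machines acting early on a chain and HSP90 acting later on a set of client proteins such as kinases and receptors. HSP70 works in cycles of ATP that J-domain proteins start and that exchange factors, HSP110 proteins among them, reset. Mitochondria have their own HSP70 and a barrel-shaped HSP60, and the worm genes for both, hsp-6 and hsp-60, are the standard reporters of the mitochondrial unfolded protein response, while heat shock factor HSF-1 drives the cytosolic heat shock genes. In the worm, daf-2 encodes the insulin and IGF-1 receptor and daf-16 the FOXO transcription factor that this receptor restrains. Chaperone genes are often read as signs of protein damage or of slowed aging in these mutants.

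The study compared wild-type larvae of the N2 strain, daf-16 mutants, daf-2 mutants and daf-2;daf-16 double mutants, each untreated, after ultraviolet (UV) irradiation or starved. No label gives the alleles, the UV dose or the way larvae were starved. Per the labels' protocols, larvae were fed for 4 h, irradiated and harvested 6 h later, and RNA of whole larvae was hybridised to 36 Affymetrix arrays, with 3 arrays in a group except for 2 of starved daf-16 and 4 of starved daf-2;daf-16 larvae. Values are log2 signals, and a difference was called where its adjusted p in limma, over all probe sets, was under 0.05. Since no label says that replicates came from separate cultures, a p-value here reflects no more than the spread among these arrays, whose number limits the precision.

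The genes were measured by 1 probe set each for hsp-1 and hsp-70 and by a pair each for hsp-6, hsp-60, hsp-110 and hsp-90. The probe set that represents a gene is the one with the higher mean signal. Over the 36 arrays, the signals of a pair correlated at Pearson's r of 0.883 for hsp-6, 0.975 for hsp-60, 0.962 for hsp-110 and 0.951 for hsp-90. Both hsp-60 probe sets, the second ones of hsp-110 and hsp-90 and the one of hsp-70 are of a kind that the array's design marks as able to match related transcripts. Signals of different probe sets were not set against each other, since a probe's brightness depends on its sequence.

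Of the 36 arrays, 3 stood apart from their groups over all probe sets: daf-2;daf-16 starved replicate 4, daf-2;daf-16 untreated replicate 1 and daf-16 UV replicate 3. Results that rest on them are given with and without them.

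**Figure D1:**
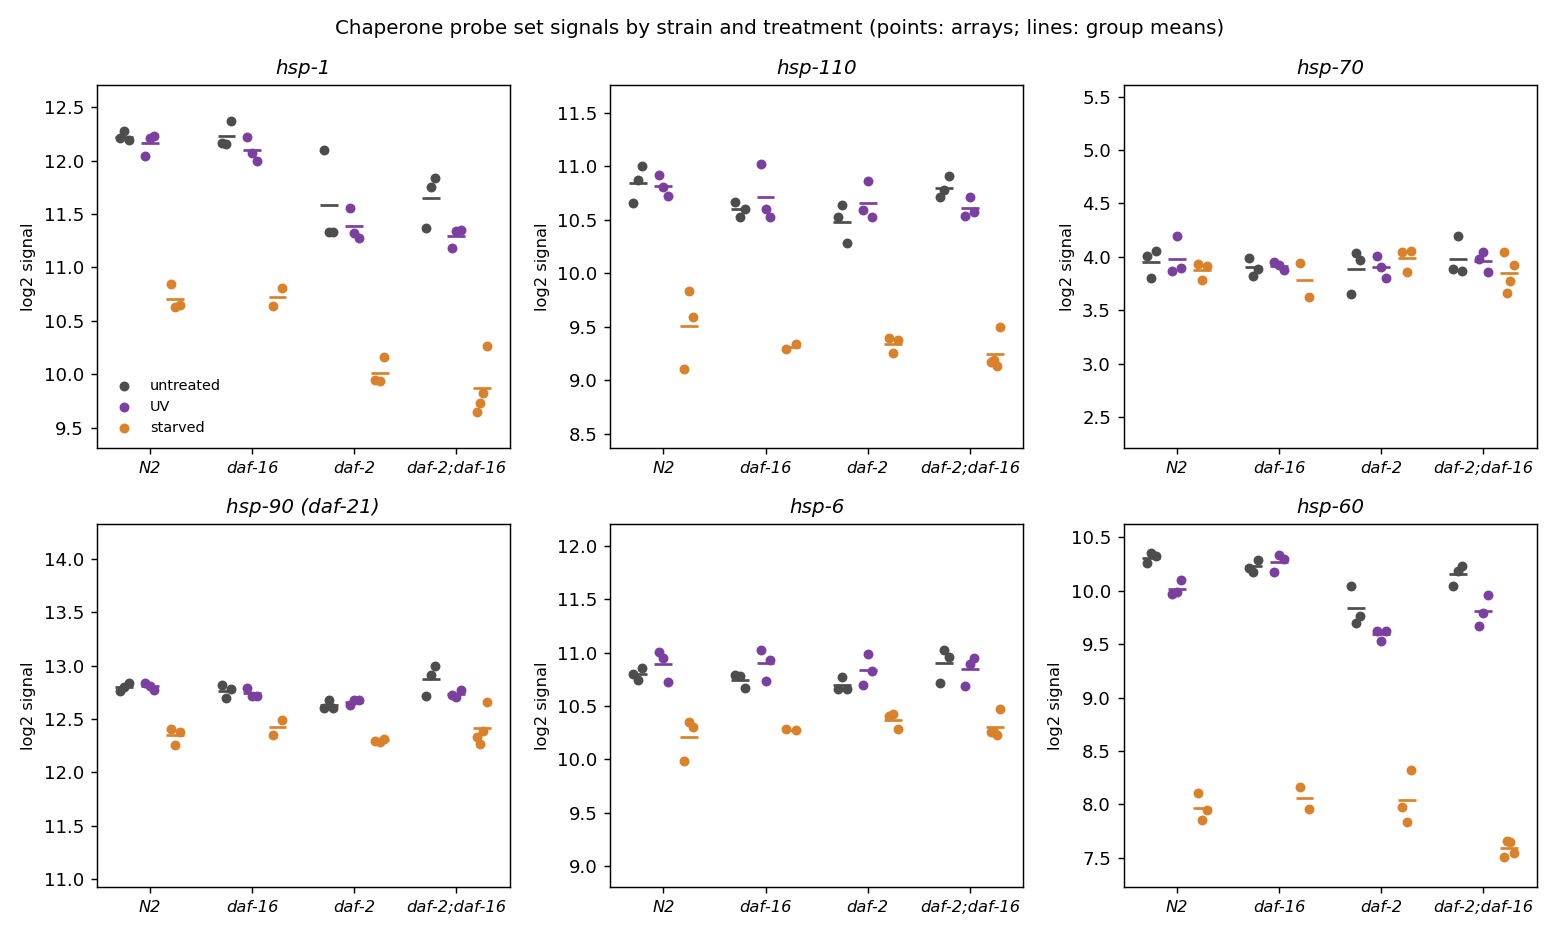
Log2 signal of the 6 chaperone genes on each array (points) and the group mean (bars), by strain and treatment, with a panel and a vertical axis of its own for each gene. Starved larvae lie below untreated and UV-treated larvae of their strain for every gene but hsp-70, and hsp-1 lies lower in daf-2 and daf-2;daf-16 than in N2 and daf-16.

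In starved larvae of every strain the signal of 5 of the 6 genes was lower than in untreated ones, hsp-70 being the exception. Untreated and starved larvae were separate groups, so a fall here means a lower signal in starved than in untreated larvae. It is not a change followed over time. The background, the share of all probe sets called lower in starved larvae, was 24.7% for N2, 24.2% for daf-16, 19.7% for daf-2 and 26.8% for the double mutant. In RNA of whole larvae, fewer cells of a type and less RNA per cell cannot be told apart. The starved and untreated arrays of a strain did not overlap for any of the 5 genes, on the representing probe set or on the second one. The share of all probe sets without such an overlap was not computed. In each strain 9 of the 10 probe sets were called lower, the exception being that of hsp-70. Without the 3 arrays that stood apart, 20 of the 24 tests of a gene in a strain were called, as with them.

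On the representing probe sets, the mitochondrial chaperonin gene hsp-60 fell furthest in every strain. In N2 its signal was 10.26, 10.35 and 10.32 in untreated larvae and 8.11, 7.85 and 7.95 in starved ones. In daf-16 mutants it was 10.22, 10.18 and 10.29 untreated against 8.16 and 7.95 starved. In daf-2 mutants it was 10.05, 9.70 and 9.77 untreated against 7.98, 7.83 and 8.32 starved. In these strains every starved array lay more than a log2 unit below every untreated one. In daf-2;daf-16 mutants the untreated signals were 10.04, 10.19 and 10.23 and the starved ones 7.51, 7.65, 7.65 and 7.54. The fall in N2 was -2.34 ± 0.10 log2 units (SE), a 5.07-fold drop, with an adjusted p of 1.5e-19. Only 2.05% of all probe sets had a lower value in that comparison. The falls were -2.17 ± 0.11 for daf-16, -1.79 ± 0.10 for daf-2 and -2.57 ± 0.09 for the double mutant, with adjusted p-values of 3.2e-17, 2.35e-16 and 2.7e-21. The second hsp-60 probe set gave smaller falls, from -1.49 in daf-2 to -1.68 in daf-2;daf-16, with -1.62 in N2, all called.

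The gene hsp-1 encodes the constitutive cytosolic HSP70. Its signal in N2 was 12.21, 12.28 and 12.19 untreated against 10.84, 10.63 and 10.65 starved. In daf-16 mutants it was 12.16, 12.15 and 12.37 against 10.64 and 10.81. The fall was -1.52 ± 0.15 in N2, a 2.87-fold drop with an adjusted p of 1.0e-10, and a 2.84-fold drop in daf-16 had an adjusted p of 1.9e-09. Mutants in daf-2 had lower signals than N2, with 12.10, 11.33 and 11.34 untreated and 9.94, 9.93 and 10.16 starved. Double mutants had 11.37, 11.76 and 11.83 untreated against 9.65, 9.73, 9.82 and 10.27 starved. The falls were -1.57 ± 0.15 in daf-2 and -1.78 ± 0.14 in the double mutant. The starvation response was not called different in daf-16 minus N2, daf-2 minus N2 or daf-2 minus the double mutant. That of the double mutant was not tested against N2 or daf-16, nor that of daf-2 against daf-16.

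The gene hsp-110 encodes the cytosolic HSP110 protein, a nucleotide exchange factor of HSP70. Its signal in N2 was between 10.65 and 11.002 in the 3 untreated arrays, the middle one at 10.87, against 9.10, 9.83 and 9.59 starved. The fall was -1.33 ± 0.13 in N2 and lay between -1.14 ± 0.13 in daf-2 and -1.55 ± 0.13 in the double mutant. The second probe set gave larger falls, of -1.57 ± 0.11 in N2 and -1.42 ± 0.11 in daf-2. Both probe sets thus placed the starved larvae below the untreated ones by over a log2 unit in each strain.

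Falls were smaller on the representing probe sets of hsp-6, the mitochondrial HSP70, and hsp-90, the cytosolic HSP90. The hsp-6 signal in N2 was between 10.75 and 10.86 untreated against 9.98, 10.35 and 10.31 starved. Its fall was -0.59 ± 0.10 in N2, with an adjusted p of 4.0e-06, and -0.32 ± 0.10 in daf-2, with an adjusted p of 0.0066. The second hsp-6 probe set gave larger falls, -1.16 ± 0.09 in N2 and -0.83 ± 0.09 in daf-2. The size of the hsp-6 fall therefore depends on which probe set is read, and its direction does not. The hsp-90 signal in N2 was between 12.76 and 12.84 untreated against 12.41, 12.26 and 12.38 starved. Its fall was -0.45 ± 0.07 for N2, -0.34 ± 0.08 for daf-16, -0.33 ± 0.07 for daf-2 and -0.46 ± 0.06 in the double mutant. In daf-2;daf-16 the value was -0.54 without the starved replicate 4, whose hsp-90 signal of 12.66 was the highest of its group, and the other 3 signals were 12.33, 12.27 and 12.39.

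The gene hsp-70 encodes a heat-inducible HSP70, and its probe set was dim, with signals between 3.62 and 4.20 over all 36 arrays and a mean above that of only 16.9% of all probe sets. In N2 its signal was 4.01, 3.80 and 4.05 untreated, 3.86, 4.19 and 3.89 after UV, and 3.93, 3.78 and 3.91 starved. Groups overlapped in every comparison of treatments. Its starvation difference lay between -0.13 and 0.10 over the strains, with 95% intervals reaching from -0.38 to 0.33, and none was called. At this signal a change in the transcript may not be detectable.

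**Figure D2:**
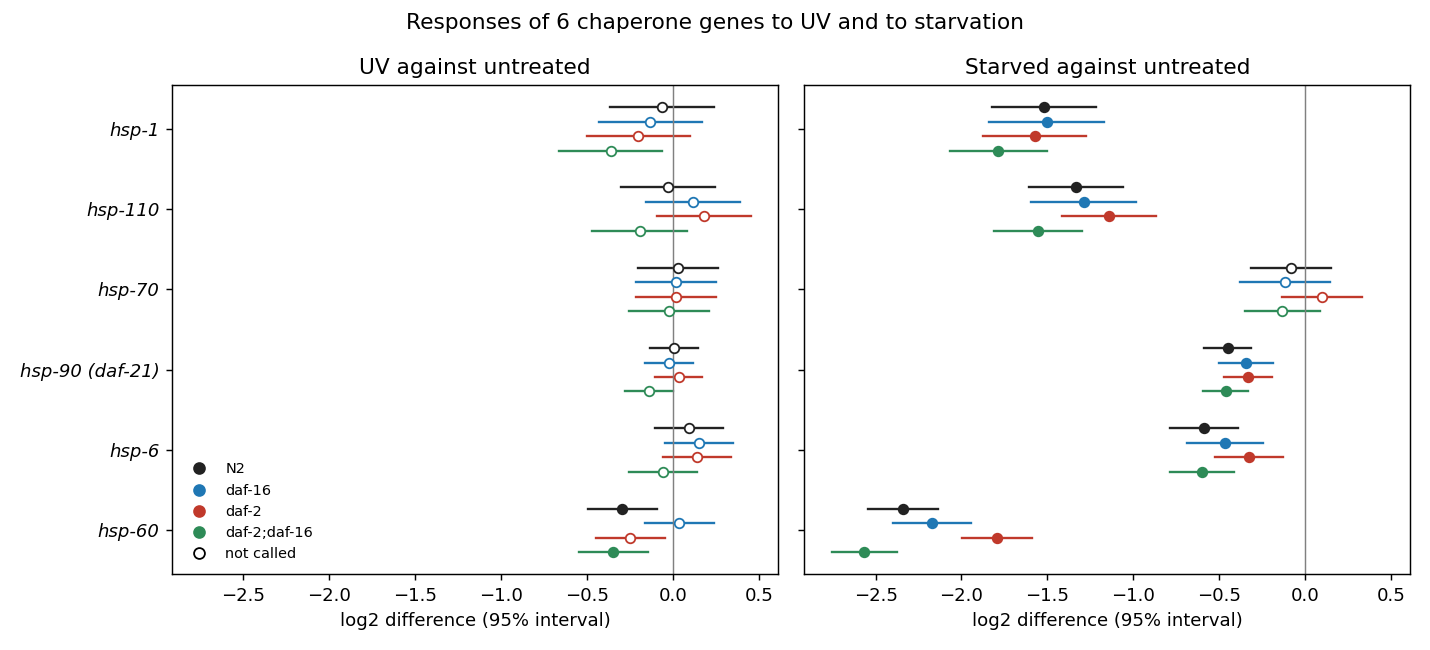
Log2 difference from untreated larvae of the same strain, with 95% intervals from limma, for the 6 genes after UV and under starvation in the 4 strains. Filled points were called and open points were not. The starvation values of 5 genes lie below 0 in all 4 strains, from -0.32 for hsp-6 to -2.57 for hsp-60, and the UV values lie between -0.36 and 0.18.

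Comparing UV-treated with untreated larvae asks whether the transcripts of these genes changed after irradiation. None of the 6 genes was called higher after UV in any strain. In N2, 1 of the 6 was called, lower, where 28.8% of all probe sets were called and 15.2% were called lower. In daf-16 none was called, against a background of 19%, and in daf-2 none, against 25%. In daf-2;daf-16, 1 was called, lower, against a background of 14.6%, of which 7.58% lower. With 6 genes, 1 call is close to the background share in either direction and is no result about these genes.

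The gene called was hsp-60 both times. After UV its signal in N2 was 9.97, 9.99 and 10.10, below all 3 untreated arrays, and the difference was -0.29 ± 0.10 with an adjusted p of 0.024. The second hsp-60 probe set differed by -0.03 ± 0.13 in N2, with an adjusted p of 0.89. Without N2 untreated replicate 2 or 3, or N2 UV replicate 1 or 2, the adjusted p of the first was 0.080, 0.062, 0.067 and 0.076, so the call in N2 rests on single arrays and on 1 probe set. In daf-2;daf-16 the signal after UV was 9.67, 9.79 and 9.96, also below every untreated array, with a difference of -0.35 ± 0.10 and an adjusted p of 0.015. There the second probe set gave -0.37 ± 0.13 with an adjusted p of 0.043. The call in daf-2;daf-16 was lost without UV replicate 1, or without untreated replicate 2 or 3, where the highest adjusted p was 0.107, and in a fit of only the groups compared, where it was 0.070. In daf-2 the difference was -0.25 ± 0.10, with an adjusted p of 0.069, and in daf-16 it was 0.04 ± 0.10, with an adjusted p of 0.85. The UV response of hsp-60 in daf-16 minus that in N2 was 0.33 ± 0.14, with an adjusted p of 0.195, so a difference between these strains was not shown.

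For the other genes no UV difference was called on the representing probe set. Over the 4 strains, its 95% intervals reached from -0.66 to 0.24 for hsp-1, from -0.25 to 0.35 for hsp-6, from -0.47 to 0.45 for hsp-110 and from -0.28 to 0.17 for hsp-90. On the second probe sets they reached from -0.21 to 0.38 for hsp-6, from -0.59 to 0.40 for hsp-110 and from -0.40 to 0.30 for hsp-90. The dim probe set of hsp-70, with intervals from -0.26 to 0.26, sets no bound on its transcript. The lowest value on a representing probe set was that of hsp-1 in daf-2;daf-16, -0.36 ± 0.15 with an adjusted p of 0.105, where UV signals of 11.18, 11.34 and 11.35 lay below all untreated ones. Without the untreated replicate 1, an array that stood apart, this value was -0.50 with an adjusted p of 0.024, and that of hsp-90 was -0.22 with an adjusted p of 0.032. In the same strain the second hsp-110 probe set was called lower, by -0.36 ± 0.11 with an adjusted p of 0.023, while the representing one differed by -0.19 ± 0.13.

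Set against each other directly, UV-treated larvae had higher signals than starved larvae for the same number of genes, 5 of 6, in each of the 4 strains. Of all probe sets, 30.2% were called higher in that comparison for N2, 23.8% for daf-16, 20.9% for daf-2 and 24.2% for the double mutant. The difference in N2 was 2.05 ± 0.10 for hsp-60, 1.46 ± 0.15 for hsp-1, 1.31 ± 0.13 for hsp-110, 0.68 ± 0.10 for hsp-6 and 0.46 ± 0.07 for hsp-90. These contrasts use no untreated array, but they share the starved arrays with the contrasts above.

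The strains differed most in hsp-1. Untreated daf-2 mutants had a lower hsp-1 signal than N2 by -0.64 ± 0.15, a 1.56-fold difference with an adjusted p of 0.00165. Of the 3 untreated daf-2 arrays, 2 were at 11.33 and 11.34 and the first at 12.10, still below the lowest N2 array at 12.19, and without that first array the difference was -0.89. After UV it was -0.78 ± 0.15 and under starvation -0.69 ± 0.15, with adjusted p-values of 2.2e-04 and 0.0015. The double mutants lay below N2 by -0.57 ± 0.15 untreated, -0.87 ± 0.15 after UV and -0.84 ± 0.14 starved, with adjusted p-values of 0.0090, 2.2e-04 and 3.7e-05. Without daf-2;daf-16 untreated replicate 1, at 11.37 the lowest of its group, the untreated difference was -0.43 with an adjusted p of 0.056. With all 3 arrays that stood apart left out, that value of -0.43 had an adjusted p of 0.021.

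In mutants of daf-16 alone no such difference was called. They differed from N2 in hsp-1 by 0.00 ± 0.15 untreated, -0.07 ± 0.15 after UV and 0.02 ± 0.16 starved, and the untreated 95% interval reached from -0.30 to 0.30. Between the single daf-2 mutant and the double mutant, hsp-1 differed by -0.07 ± 0.15 untreated, 0.09 ± 0.15 after UV and 0.15 ± 0.14 starved, again with no call. With 1 array left out, the untreated difference lay between -0.32 and 0.06 and was not called. In a fit with array weights it was called, at -0.35 with an adjusted p of 0.0069. There the starvation response in daf-2 minus that in the double mutant was also called, at 0.57 with an adjusted p of 0.0062. Without the 3 arrays that stood apart neither was called. The untreated comparison of these 2 strains thus depends on the weight of single arrays. In the order of the group means within each treatment, N2 and daf-16 were neighbours at the top and daf-2 and daf-2;daf-16 neighbours at the bottom, and the arrays of neither pair separated. The response of hsp-1 in daf-2 minus that in N2 was -0.14 ± 0.21 for UV and -0.05 ± 0.21 for starvation, and neither was called. The gene has 1 probe set on the array, so no second one was at hand to compare. Marker lists moved with the strains too. The mean over 15 genes of the molting cycle, each centred on its mean over all arrays, lay between 1.39 and 1.49 on the untreated daf-2 arrays. On those of the double mutant it lay between 1.37 and 2.33, and both groups were below the 2.46 to 2.62 of N2 and the 2.57 to 2.75 of daf-16. The 2.33 was that of untreated double mutant replicate 1, which at 11.37 had the lowest hsp-1 signal of its group. After UV and in starved larvae hsp-1 was also lower in daf-2 and the double mutant than in N2. The molting means after UV were 0.48 to 0.99 in N2, -1.75 to -0.86 in daf-2 and 1.07 to 1.39 in the double mutant. In starved larvae those of N2 (-2.76 to -2.57), daf-2 (-2.78 to -2.42) and the double mutant (-2.75 to -2.66) overlapped. Of 5 tissue lists, centred likewise, 4 did not overlap between untreated daf-2 and N2. How often lists of other genes or single probe sets fail to overlap was not computed, so these counts are a description. The hypodermal mean was 0.78 to 0.82 against 1.45 to 1.54. For muscle it was -0.07 to 0.04 against -0.19 to -0.16, for intestine 0.01 to 0.04 against -0.18 to -0.05, and for neurons -0.12 to 0.00 against -0.25 to -0.14. In untreated double mutants the germline mean, at -0.02 to 0.03, was the 1 of these 5 that did not overlap N2. The part of these lists in the hsp-1 differences was not tested.

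**Figure D3:**
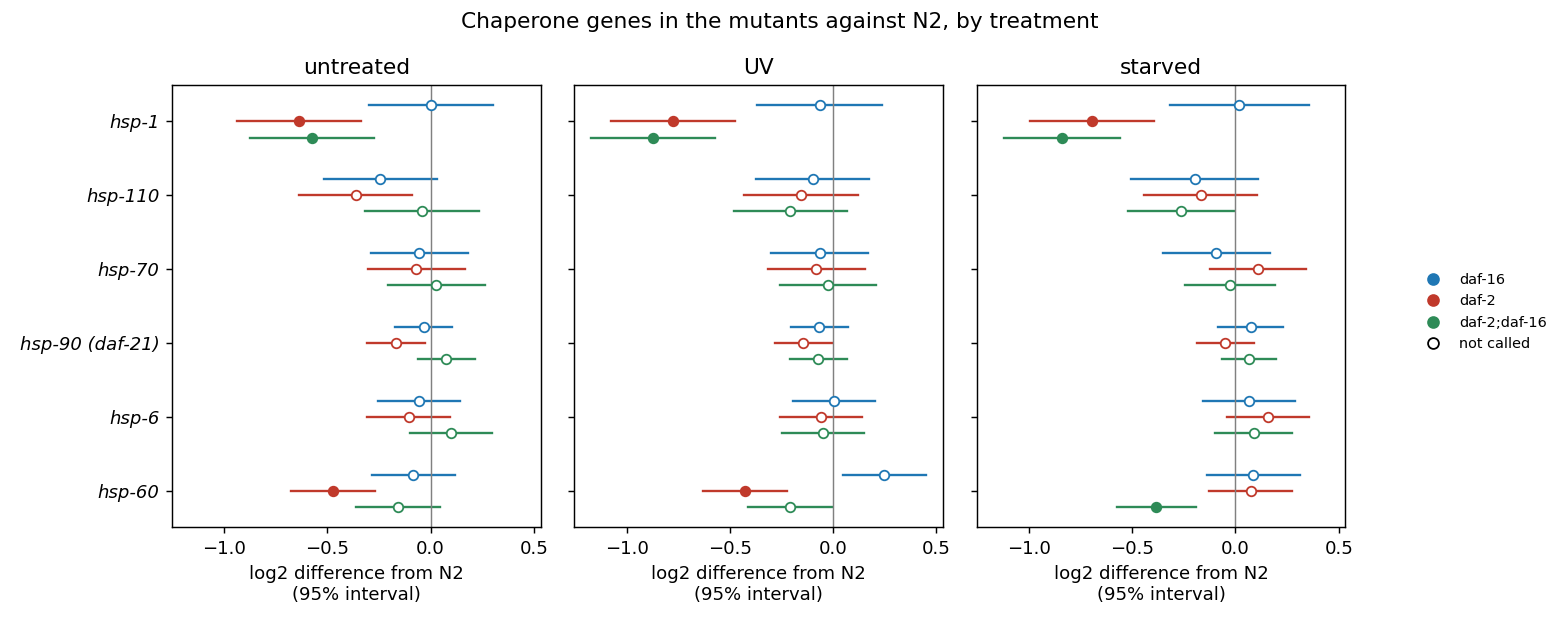
Log2 difference of each mutant from N2 with its 95% interval from limma, for the 6 genes in untreated, UV-treated and starved larvae. Filled points were called. The hsp-1 values of daf-2 and daf-2;daf-16 lie between -0.57 and -0.87 in the 3 panels, and those of daf-16 between -0.07 and 0.02.

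In untreated daf-2 mutants 2 of the 6 genes, hsp-1 and hsp-60, were called lower than in N2, where 6.81% of all probe sets were called lower. In untreated daf-2;daf-16 mutants 1 was called lower, hsp-1, against a background of 4.1%. After UV, 2 were called lower in daf-2 (background 6.95%) and 1 in the double mutant (4.78%). Under starvation, 1 was called lower in daf-2 (5.47%) and 2 in the double mutant (6.17%). In daf-16 mutants none was called in untreated, UV-treated or starved larvae, against backgrounds of 1.43%, 19.3% and 7.75% called in either direction. On the representing probe sets no call against N2 was higher, and each was of hsp-1 or hsp-60. In UV-treated daf-2;daf-16 the second probe sets of hsp-60 and hsp-6 were also called lower than in N2, by -0.47 ± 0.13 and -0.33 ± 0.09 with adjusted p-values of 0.015 and 0.023. The comparisons with N2 within a treatment share the N2 arrays. Without the 3 arrays that stood apart, hsp-110 and hsp-90 were also called lower in untreated daf-2 than in N2, at -0.36 and -0.17, and hsp-90 was called higher in untreated daf-2;daf-16, at 0.15, and lower in UV-treated daf-2, at -0.14.

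The hsp-60 signal was lower in daf-2 than in N2 by -0.47 ± 0.10 untreated and by -0.43 ± 0.10 after UV, with adjusted p-values of 5.7e-04 and 0.0021. After UV the daf-2 arrays read 9.62, 9.53 and 9.62. The second probe set gave -0.31 ± 0.13 untreated, not called with an adjusted p of 0.101, and -0.60 ± 0.13 after UV, called with 7.5e-04. In starved larvae daf-2 differed from N2 by 0.07 ± 0.10 and was not called. The starved double mutants lay lower than N2, by -0.38 ± 0.09 with an adjusted p of 0.0039, on the representing probe set, and by -0.19 ± 0.12, not called, on the second.

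Setting daf-2 against the double mutant asks what depends on daf-16 where daf-2 is mutant. In untreated larvae 2 of 6 genes were called lower in daf-2, where 5.84% of all probe sets were called lower. The signal of hsp-60 was lower in daf-2 by -0.32 ± 0.10 with an adjusted p of 0.033, but 1 daf-2 array at 10.05 lay above the lowest double mutant array at 10.04. The second hsp-60 probe set differed by -0.18 ± 0.13 there, with an adjusted p of 0.489. The signal of hsp-90 was lower by -0.24 ± 0.07 with an adjusted p of 0.014, from 12.60, 12.68 and 12.60 in daf-2 against 12.72, 12.91 and 12.996, and the second probe set gave -0.27 ± 0.09 with an adjusted p of 0.040. Each of these 2 calls was lost in 4 of the 6 fits that left out 1 array of the groups compared, with adjusted p-values up to 0.201 for hsp-60 and 0.138 for hsp-90. The arrays were daf-2 replicates 2 and 3 for hsp-60, daf-2 replicates 1 and 3 for hsp-90, and double mutant replicates 2 and 3 for both. In a fit of only the groups compared the adjusted p was 0.117 for hsp-60 and 0.096 for hsp-90. Without the 3 arrays that stood apart, hsp-6 was also called lower in untreated daf-2, at -0.30. After UV none was called, against a background of 13.6%. In starved larvae 1 was called, hsp-60, higher in daf-2 by 0.46 ± 0.09 with an adjusted p of 3.1e-04, where 9.84% of all probe sets were called higher. The second hsp-60 probe set gave 0.01 ± 0.12 there.

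On the representing probe set of hsp-60 the starvation fall itself was smaller in daf-2 than in N2 or the double mutant. The starvation response in daf-2 minus that in N2 was 0.55 ± 0.14, with an adjusted p of 0.0063, and minus that in daf-2;daf-16 it was 0.77 ± 0.14, with an adjusted p of 1.5e-04. Backgrounds were 5.96% and 5.25% of all probe sets called higher. Without the 3 arrays that stood apart, these values were 0.55 and 0.81, both called. On the second hsp-60 probe set the same differences were 0.13 ± 0.18 and 0.19 ± 0.17, with adjusted p-values of 0.71 and 0.54, so the smaller fall was seen on only 1 of the 2. Of the other 5 genes, none was called in these tests. Without the 3 arrays that stood apart, the starvation response in daf-2 minus that in daf-2;daf-16 was also called for hsp-6 at 0.42, hsp-110 at 0.54 and hsp-90 at 0.29, and the UV response for hsp-90 at 0.25. With all arrays, none of the 6 was called in the test of daf-16 minus N2, against 3%, or in the UV tests, against 1.85%, 4.66% and 5.45%.

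The genes that work with these chaperones were read from lists chosen by role, with earlier results of these data known. In starved N2 larvae, 7 of 8 partners of HSP90 were called lower and none higher, where 24.7% of all probe sets were called lower. The median log2 difference of the partners was -1.09 against -0.03 over all probe sets. Among the partners, daf-41, the worm p23 cochaperone, fell by 1.61 ± 0.09. The immunophilin gene fkb-6 fell by 1.40 ± 0.13. The gene sti-1, whose product links HSP70 to HSP90, fell by 1.14 ± 0.14, and unc-45, a chaperone of myosin, by 1.08 ± 0.11. The phosphatase gene pph-5 differed by -0.11 ± 0.11 and was not called. Its probe set was dim, with a mean of 4.82 over all arrays, near the 4.86 of sti-1. The probe sets of sti-1, cdc-37, daf-41, ahsa-1 and fkb-6 are of the kind able to match related transcripts. In each of the other 3 strains 7 of 8 partners were also lower. The medians were -0.99 for daf-16 (24.2% of all probe sets called lower), -0.94 for daf-2 (19.7%) and -1.08 for the double mutant (26.8%). After UV, 4 of 8 were called lower in the double mutants, 2 in the daf-2 strain, 1 in N2 and none in the daf-16 strain. Of all probe sets 7.58%, 12.6%, 15.2% and 7.76% were called lower there, so the count in N2 is near its background.

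Partners of the cytosolic HSP70 were mixed. In starved N2 larvae 5 of 7 were lower and 1 higher, with a median of -0.43. Of all probe sets 24.7% were called lower there and 28.3% higher, so the 1 call higher is no result about this list. The exchange factor gene bag-1 fell by 1.36 ± 0.12 and the J-domain gene dnj-13 by 0.80 ± 0.13. The gene called higher was chn-1, the worm CHIP ubiquitin ligase, at 0.39 ± 0.09, and it was higher in starved larvae of all 4 strains. After UV in N2, chn-1 and bag-1 were both lower, by -0.32 ± 0.09 and -0.38 ± 0.12. The 6 prefoldin genes, whose products hand nascent actin and tubulin to the cytosolic chaperonin, were all lower in starved larvae of every strain, with a median of -0.97 in N2.

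In the mitochondrial list, 6 of 9 partners and proteases were lower in starved N2 larvae, with a median of -0.95. Of all probe sets 24.7% were called lower there. The matrix protease gene lonp-1 fell by 1.13 ± 0.09, the protease gene spg-7 by 1.01 ± 0.10, and hsp-75, a mitochondrial HSP90, by 0.95 ± 0.10. The gene Y22D7AL.10, which lies next to hsp-60 on chromosome III, fell by 2.36 ± 0.07 in N2 and by 1.83 ± 0.07 in daf-2. Its values were thus close to those of hsp-60 on the representing probe set, -2.34 and -1.79. It was also lower after UV in N2, by -0.31 ± 0.07 with an adjusted p of 0.0014. The protease gene ymel-1 differed by -0.02 ± 0.08 in starved N2 larvae. After UV, 1 of 9 was lower and 1 higher in N2, the second being spg-7 at 0.28 ± 0.10, a share near the 28.8% of all probe sets called in either direction. In the double mutant 3 of 9 were lower after UV, where 7.58% of all probe sets were, and in daf-2 1 was lower (12.6%). In daf-16 1 was higher and none lower, where 19% of all probe sets were called in either direction.

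The lists of regulators were mixed. Of the 4 regulators of the mitochondrial unfolded protein response, 3 were higher and 1 lower in starved N2 larvae, with a median of 0.40, where 28.3% of all probe sets were called higher. In daf-16 1 was higher and 1 lower (27% of all probe sets higher). In daf-2 and in the double mutant 2 were higher and 1 lower (23.3% and 27.7%). The transcription factor genes atfs-1 and dve-1 differed by 0.23 ± 0.10 and 0.76 ± 0.14, the transporter gene haf-1 by 0.58 ± 0.15, and the ubiquitin-like ubl-5 by -0.74 ± 0.14. In starved larvae of all 4 strains atfs-1 was called higher and ubl-5 lower. After UV in daf-2 mutants, atfs-1 and ubl-5 were called higher, by 0.50 ± 0.10 and 0.60 ± 0.14, where 12.3% of all probe sets were. There hsp-6 and hsp-60 were not called. In the other strains after UV the calls went both ways. Of the 4 genes, 1 was lower in N2 (15.2% of all probe sets lower) and 1 lower in the double mutant (7.58%). In daf-16 1 was higher (19% called in either direction). The gene for HSF-1 itself rose by 0.27 ± 0.10 in starved N2 larvae, and its inhibitor hsb-1 fell by 0.42 ± 0.15, which made 1 higher and 1 lower of 4 listed genes. Of all probe sets 28.3% were called higher there and 24.7% lower. The list's count was the same in daf-16, and 1 lower with none higher in daf-2 and in the double mutant. None of the 4 genes of that list was called after UV in any strain.

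**Figure D4:**
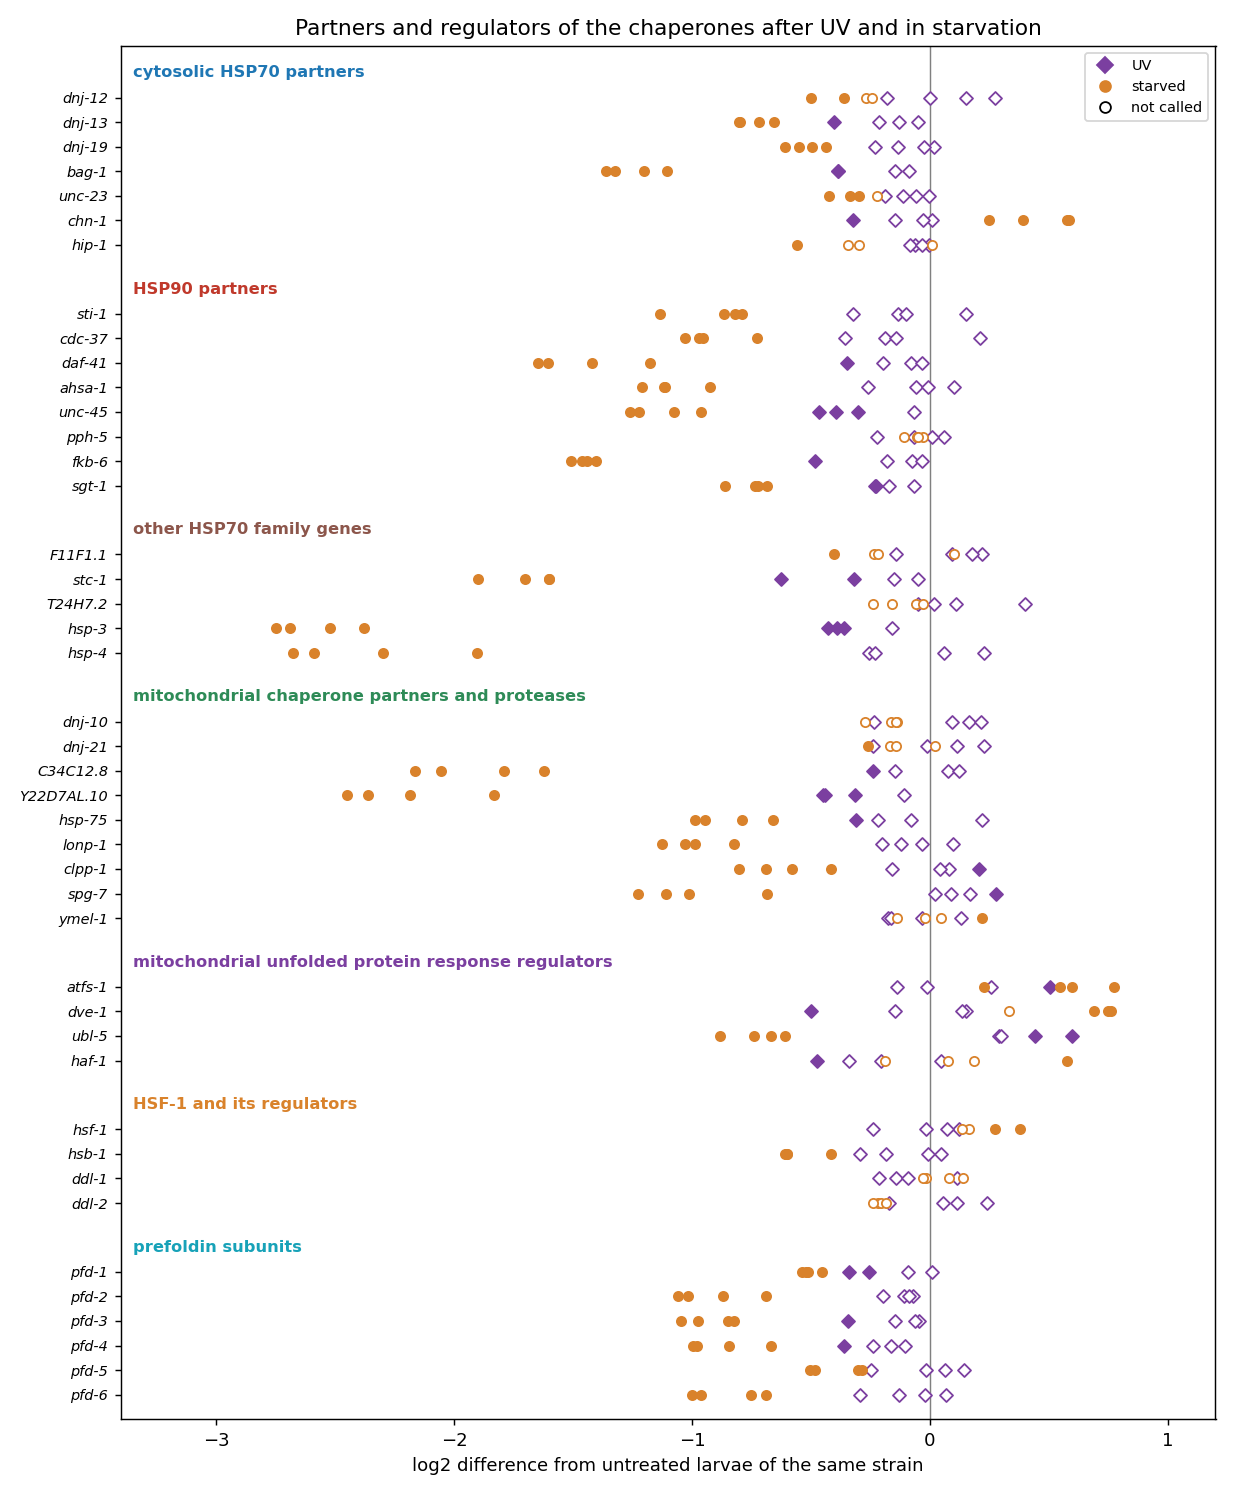
Log2 difference from untreated larvae of the same strain for the genes of the lists by role, a line per gene, with diamonds for UV and circles for starvation and a point for each of the 4 strains. Filled points were called. For 7 of 8 HSP90 partners and all 6 prefoldin genes every starvation point is filled and below 0, while most UV points are open.

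The 5 genes that fell under starvation also had alike patterns over the 12 group means, with Pearson's r between 0.83 and 0.98 for each pair of them, while hsp-70 had r between 0.35 and 0.61 with them. These points share arrays and one large step between fed and starved larvae, and are given as a description. Among 6502 other genes with a probe set of their own and at least a median signal, those most like hsp-60 were ribo-1 at r = 0.997 and rpn-2 at 0.994. Those most like hsp-1 were acs-13 at 0.985 and usp-5 at 0.984. For hsp-6 they were abce-1 at 0.996 and snr-6 at 0.994, for hsp-110 F42A10.5 at 0.996 and sec-24.2 at 0.993, and for hsp-90 mrps-18B at 0.988 and natb-1 at 0.986. The genes closest to hsp-70 were ugt-66 at 0.898 and end-1 at 0.869, the lowest values of the 6.

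Marker lists also moved with the treatments, and their part in the values above was not tested. Genes of the molting cycle, 15 of them measured, were lower in starved N2 larvae for 13 genes with a median of -6.16, and after UV for 13 genes with a median of -2.03. The mean over these genes lay between 2.46 and 2.62 in untreated N2 arrays, 0.48 and 0.99 after UV, and -2.76 and -2.57 when starved. In starved N2 larvae, 7 of 7 markers of body wall muscle were higher, 5 of 7 neuronal markers were higher and 1 lower, 6 of 7 hypodermal markers were lower, 3 of 6 intestinal markers were higher and 3 lower, and 3 of 7 germline markers were lower. Of all probe sets 28.3% were called higher and 24.7% lower in starved N2, and 15.2% lower after UV in N2. On the same scale, the mean over muscle markers lay between -0.19 and -0.16 in untreated and between 0.40 and 0.57 in starved N2 arrays, and that over neuronal markers between -0.25 and -0.14 untreated and 0.67 and 0.83 starved. The hypodermal mean lay between 1.45 and 1.54 untreated and -1.66 and -1.39 starved. The intestinal mean lay between -0.18 and -0.05 untreated and 0.02 and 0.14 starved, and the germline mean between 0.06 and 0.18 untreated and -0.25 and -0.08 starved. Starved and untreated N2 arrays did not overlap on any of these 5 means, and how often other lists fail to overlap was not computed. The gene dpy-7 is on both the molting and the hypodermal list. The difference between the 3' and 5' control probe sets for Gapdh, a sign of RNA or labelling quality, was 0.73 to 0.91 in untreated N2, 0.33 to 0.62 in starved N2 and 0.29 to 0.55 in untreated daf-2 arrays. The same difference for actin overlapped, at 0.68 to 0.95, 0.55 to 0.83 and 0.63 to 0.79 in that order. So did that for ubiquitin, at 4.75 to 4.95, 4.93 to 5.06 and 4.88 to 5.11.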

How the data were processed

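Whole larvae were profiled on 36 Affymetrix arrays. The authors deposited log2 signals per probe set. The submitters' processing notes name Affymetrix Power Tools, without a version, a summary method or a genome build. Array medians ran from 5.79 to 5.88, so no further normalization was applied. After 77 control probe sets were left out, 22548 were fitted with limma 3.58.1 in R 4.3.3, with 12 group means, 24 residual degrees of freedom and an intensity trend. Each of 30 comparisons was adjusted by Benjamini-Hochberg over all probe sets, and adjusted p under 0.05 was called. The fit was tested on simulated data.

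Probe sets were named through the platform annotation, updated by gene ID. A gene with several probe sets is represented by the brightest. Named genes are the 6 chaperones, all members of role lists and markers, and the 2 genes most like each chaperone. F44E5.4 and F44E5.5 share probe sets and are not reported, and dpy-10 and opt-2 had no probe set of 1 symbol. The chaperones and lists were chosen with earlier results of these data known. Alternatives were other normalizations, weights, probe sets, arrays left out and a replicate block.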

Additional observations from a re-analysis of the deposited data

Results flagged for a closer look

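In the 4 starved daf-2;daf-16 arrays, replicate 4 lay far from the other 3 for 3 probe sets, those that represent hsp-6 and hsp-110 and the second one of hsp-90, on the high side each time. Its gap to the nearest array took a share of the group's range of 0.855 for hsp-6, 0.850 for hsp-110 and 0.831 for the second hsp-90 probe set, above Dixon's critical value. Chance gives such a gap in about 1 in 20 groups, and this array also stood apart over all probe sets. The falls of these genes in daf-2;daf-16 were called with and without it.

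The starvation response of hsp-60 on its brighter probe set differed between strains by the test of the difference itself. It was smaller in daf-2 than in N2 by 0.547 and smaller than in daf-2;daf-16 by 0.772 log2 units. The second hsp-60 probe set gave 0.13 and 0.19, which were not called.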

How the results depend on the processing

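The 20 of 24 starvation calls and the 20 of 24 calls of UV-treated against starved larvae were 20 under every alternative but 1, and 16 of 16 where probe sets able to match related transcripts were left out, which takes away hsp-60 and hsp-70. Counts of other calls moved by over 1.5 times. As reported they were 2 of 24 for UV, 5, 3 and 4 of 24 for strains in untreated, UV-treated and starved larvae, and 2 of 36 for differences in response. With array weights they were 4 for UV, 10 for strains untreated, 5 for strains after UV and 6 for differences in response. Without the probe sets able to match related transcripts they were 0 for UV, 3 for strains untreated, 2 for strains starved and 0 for differences in response. With the dimmest probe set of each gene they were 3 for strains untreated, 5 after UV, 2 starved and 0 for differences in response. Without the 3 arrays that stood apart they were 4 for UV, 9 for strains untreated and 6 for differences in response. The cause was not tested, other than that the second alternative drops hsp-60. Leaving out 1 array gave 1 to 4 for UV, 20 to 20 for starvation, 3 to 6, 3 to 3 and 4 to 5 for strains untreated, after UV and starved, 2 to 2 for differences in response and 20 to 20 for UV against starvation. No value called in the reported fit changed direction under these alternatives.

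Same-numbered arrays of different groups did not deviate together (median r = 0.0019 over 187 pairs, against -0.0043 over 406 others), so the numbers were not taken as pairs. With a replicate block the counts were 2 for UV, 20 for starvation, 6, 3 and 4 for strains, 2 for differences in response and 20 for UV against starvation. The dim hsp-70 probe set limits what could be seen of that gene.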

Other observations

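The HSP70 family genes hsp-3 and hsp-4 of the endoplasmic reticulum, which lie outside the cytosolic and mitochondrial set, had larger starvation differences than hsp-1 or hsp-6. In starved N2 larvae hsp-3 differed from untreated by -2.69 ± 0.09 and hsp-4 by -2.59 ± 0.15, and in starved daf-2 larvae by -2.38 ± 0.09 and -1.90 ± 0.15, all called. The related gene stc-1 differed by -1.90 ± 0.09 in N2, also called. After UV, hsp-3 was lower in N2 by -0.39 ± 0.09 with an adjusted p of 0.0010 and in daf-2 by -0.43 ± 0.09 with an adjusted p of 4.1e-04, and stc-1 was lower in N2 by -0.62 ± 0.09. The hsp-4 difference after UV, -0.25 ± 0.15 in N2, was not called. Of 5 measured genes of this list, 2 more, F11F1.1 and T24H7.2, differed by -0.23 ± 0.11 and -0.06 ± 0.15 in starved N2 larvae and were not called. All 5 were read on probe sets of the kind able to match related transcripts. That of F11F1.1 was dim, with a mean of 4.21 over all arrays. In all, 3 of 5 were lower and none higher in starved N2 larvae, with a median of -1.90, where 24.7% of all probe sets were called lower. After UV, 2 of 5 were lower in N2, 1 in daf-2, 2 in the double mutant and none in daf-16, with none higher. Of all probe sets 15.2%, 12.6%, 7.58% and 7.76% were called lower there.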
